A study of Mus musculus with 412 samples.

Results

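Class II molecules of the major histocompatibility complex present peptides from endosomes to CD4 T cells. They are heterodimers of an alpha and a beta chain, assembled in the endoplasmic reticulum around the invariant chain Cd74, and loaded with peptide in endosomes with the help of H2-DM. Their transcription depends on the coactivator Ciita and is best known in dendritic cells, macrophages and B cells, in which interferon gamma can raise it. In dorsal root ganglia, neurons lie among satellite glia and resident macrophages, so the cell of origin of a class II transcript has to be read neuron by neuron.

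Transcripts of 7 genes of this pathway, H2-Aa, H2-Ab1, H2-Eb1, H2-DMa, H2-DMb1, Cd74 and Ciita, were described among 45513 genes in single sensory neurons of the colon. The genes were chosen by their levels in an earlier look at the same values, so all that follows is a description with no test. The neurons came from C57BL/6J mice and had been traced by Fast Blue injected into the colon wall, then picked by hand from separate cultures of ganglia, thoracolumbar ones from T10 to L1 (TL) and lumbosacral ones from L5 to S2 (LS). The labels list 203 TL and 196 LS neurons with 13 bath controls over 6 plates, and the table used here holds 167 TL and 158 LS neurons. Before clustering, the authors removed further cells that held genes of satellite glia. All neurons of the table were kept here. Age, sex, mouse and culture of a neuron are not given in the sources used here. TL and LS were therefore taken as 1 sample each, and cells are not replicates.

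Levels are in TPM, values taken off the log2 scale and rescaled to a sum of 1000000 in each neuron, and a gene counted as expressed at 10 TPM or more. From the values, 416048 to 12059074 reads per neuron were recovered, with a median of 2867071. At the median depth 10 TPM stood for 22.8 reads of H2-Aa, 19.9 of H2-Ab1 and 17.2 of Cd74, and at the lowest depth for 3.09, 2.70 and 2.32 reads. Every interval is an exact binomial 95% interval by the method of Clopper and Pearson. It covers the counting error of a number of neurons only, and no difference between mice or cultures. Reads carry no molecular identifiers in Smart-seq2, so molecules were not counted.

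A small set of LS neurons held the transcripts of a whole class II molecule. H2-Aa and H2-Ab1, the alpha and beta chains of I-A, and Cd74 were expressed together in 8 of 158 LS neurons (5.06%, 2.21 to 9.73). None of 167 TL neurons held all 3, and the upper end of that interval is 2.18%. The levels in these 8 neurons lay far above the threshold for I-A. H2-Aa ran from 41.8 to 184 TPM and H2-Ab1 from 59.1 to 378 TPM. LS neuron 106 had the highest sum of the 3, with 184 TPM of H2-Aa (548 reads), 266 TPM of H2-Ab1 (690 reads) and 407 TPM of Cd74 (911 reads). LS neuron 130 followed with 182, 246 and 214 TPM. Cd74 was the uneven member, since it stood at 10.02 TPM (36 reads) in LS neuron 7 and 10.9 TPM (13 reads) in LS neuron 76, where H2-Ab1 reached 132 and 378 TPM. LS neuron 91 lay just outside, with H2-Aa at 9.90 TPM beside 43.7 TPM of H2-Ab1 and 11.7 TPM of Cd74.

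Some markers of immune cells, but not all, were higher in this set, and they have to be read beside it. Of 25 markers of macrophages, dendritic cells and B cells other than C1qb, at least 1 was at 10 TPM or more in 7 of the 8 neurons (87.5%, 47.3 to 99.7) and in 43 of the other 150 LS neurons (28.7%, 21.6 to 36.6). With such neurons left out, 1 of 108 LS neurons (0.926%, 0.0234 to 5.05), LS neuron 7, held all 3 transcripts. The lysozyme gene Lyz2 was at 10 TPM or more in 4 of the 8 neurons and in 4 of the other 150, with a mean of 8.75 against 1.72 TPM. Cd68, of macrophage lysosomes, was at 10 TPM or more in 2 of the 8 and in 15 of the other 150, and the transcription factor gene Zbtb46 in 2 and in 13. Outside LS neuron 111, each of the 25 markers that reached 10 TPM in the 8 neurons lay between 10.1 and 13.3 TPM. These were Lyz2 in LS neurons 76, 130 and 142, Cd68 in 76 and 106, and Zbtb46 in 20 and 80. Means in the 8 and the other 150 were close for Cd68 (3.74 and 3.48 TPM), Csf1r (1.12 and 1.15 TPM), Aif1 (1.32 and 1.18 TPM) and Flt3 (1.44 and 1.51 TPM). Among the 8 neurons Tyrobp and Fcer1g were above 0 in LS neuron 111 alone, and without that neuron the mean of Lyz2 was 4.81 TPM. Summed over the macrophage list without C1qb, levels ran from 2.5 to 75.2 TPM with a median of 13.6 TPM, against a median of 6.9 TPM in the other LS neurons. Adgre1 was at 0 in all 8 neurons and Ptprc, the leukocyte common antigen, did not pass 0.705 TPM, but these genes were low in the other 150 as well, with highest values of 1.24 and 0.338 TPM. Other cell types differed as well. Means in the 8 neurons were compared with those in the other 150. Genes at least 2 times lower were 6 of 8 of satellite glia, 3 of 4 of Schwann cells and 2 of 2 of pericytes. At least 2 times higher were 4 of 8 of macrophages, 1 of 3 of dendritic cells and 1 of 2 of B cells. Of 4 endothelial genes, 2 were higher and 1, Esam, was lower. Over all 17369 genes compared, 2711 were higher and 1685 lower by that ratio. Without LS neuron 111, 2 of 6 macrophage genes compared were higher. The part of these cells in the class II levels was not tested.

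LS neuron 111 stood apart from the other 7. It held Tyrobp at 11.4 TPM, Fcer1g at 14.8 TPM, Lyz2 at 36.3 TPM and the endosomal protease gene Ctss at 19.0 TPM, all of them genes of myeloid cells. It was also the neuron of the set with Asic3 and Piezo2, at 144 and 75.8 TPM. Without it, 7 of 157 LS neurons (4.46%) held H2-Aa, H2-Ab1 and Cd74. C1qb, which encodes a chain of complement C1q, was set aside above, a choice made after seeing the data, because it was expressed in 121 of 158 LS and 75 of 167 TL neurons. Its partners C1qa and C1qc did not pass 0.776 and 2.92 TPM in the 8 neurons. Transcripts of neurons were abundant, with Tubb3 of neuronal tubulin between 3144 and 7446 TPM in the 8 neurons and a mean of 5947 TPM against 6463 TPM in the other LS neurons.

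**Figure D1:**
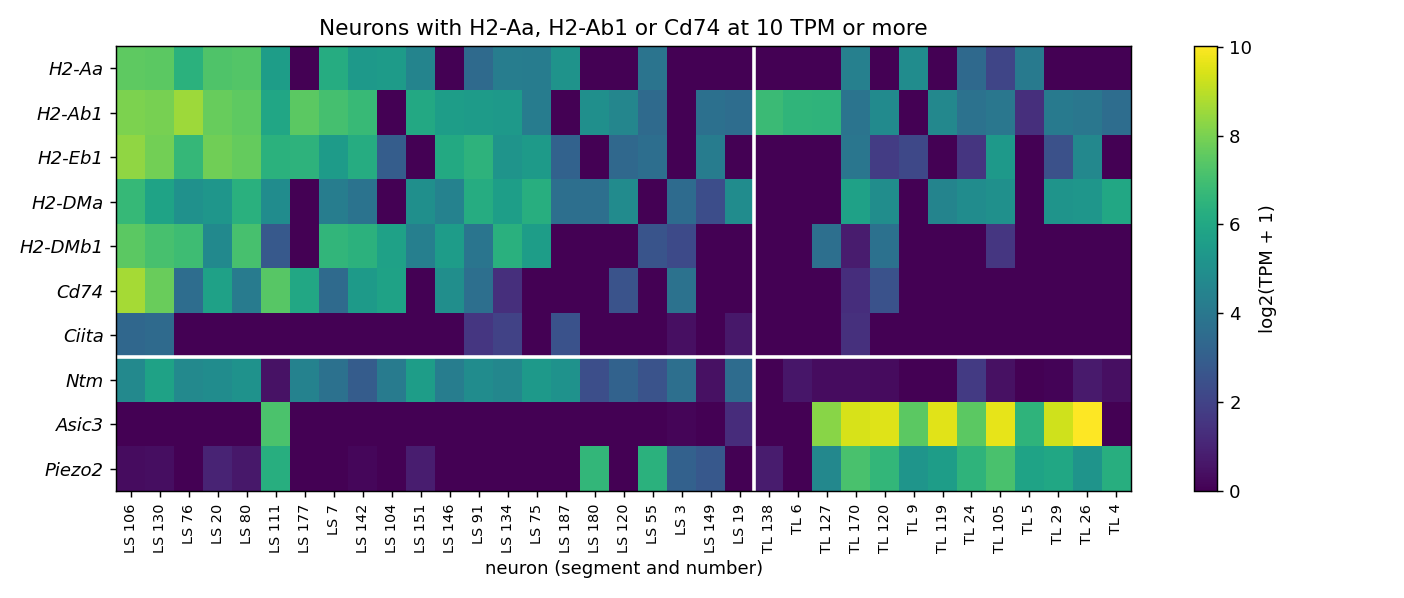
Level of the 7 class II genes (upper block) and of Ntm, Asic3 and Piezo2 (lower block) as log2(TPM + 1) in each of the 22 LS and 13 TL neurons with H2-Aa, H2-Ab1 or Cd74 at 10 TPM or more, ordered within segment by the sum of these 3 genes. LS neurons 106 and 130, with the highest sums, hold most members together with Ntm. Of the 22 LS neurons 16 hold Ntm, and 10 of the 13 TL neurons hold Asic3 and Piezo2.

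The I-A chains were often found together in LS. H2-Aa was expressed in 14 LS neurons (8.86%, 4.93 to 14.4) and 3 TL neurons (1.80%, 0.372 to 5.16). In the LS neurons that expressed it, its lowest, median and highest levels were 13.5, 45.9 and 184 TPM, and in the 3 TL neurons they were 15.9, 19.6 and 28.4 TPM. H2-Ab1 was expressed in 19 LS neurons (12.03%, 7.40 to 18.1), from 10.1 to 378 TPM with a median of 59.1 TPM, and in 11 TL neurons (6.59%, 3.33 to 11.5), from 10.96 to 113 TPM with a median of 15.8 TPM. The ranges of the segments overlapped for both genes. In LS, 12 of the 14 neurons with H2-Aa also had H2-Ab1, and in TL 1 of 3. Over all 325 neurons, 13 of the 34 with either chain had both. Spearman's rho of the chains was 0.57 over 158 LS neurons and 0.31 over 167 TL neurons, given as a description, since 123 LS neurons were at 0 for both. H2-Ab1 was the higher chain in 10 of the 12 LS neurons with both.

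**Figure D2:**
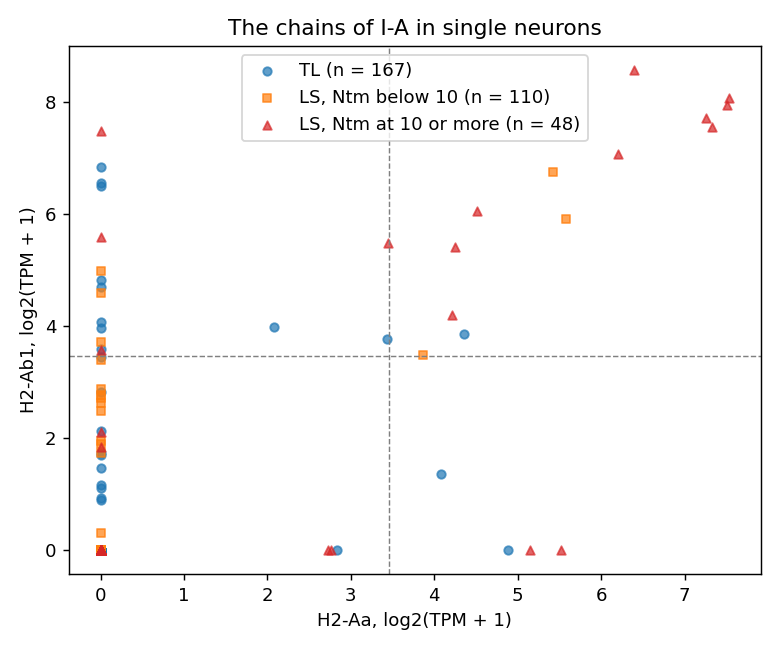
H2-Ab1 against H2-Aa in each neuron as log2(TPM + 1), with dashed lines at 10 TPM and symbols for TL neurons and for LS neurons with and without Ntm. Both chains passed 10 TPM in 12 LS neurons and 1 TL neuron.

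H2-Eb1, the beta chain of I-E, was more widely spread. It was expressed in 42 LS neurons (26.6%, 19.9 to 34.2), with lowest, median and highest levels of 10.5, 20.3 and 327 TPM, and in 23 TL neurons (13.8%, 8.94 to 19.9), with 10.3, 22.5 and 94.2 TPM. C57BL/6 mice carry a defect of the I-E alpha gene, and its locus, H2-Ea-ps, was at 0 in every neuron. H2-Eb1 sat close to the threshold in many neurons, with 52 of 325 between 5 and 10 TPM. It joined both I-A chains in 11 LS neurons (6.96%, 3.53 to 12.1) and in 1 TL neuron.

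Cd74, the invariant chain, and the scarcer Ciita reached 10 TPM in LS neurons only. Cd74 was expressed in 13 LS neurons (8.23%, 4.45 to 13.7) and in none of the TL neurons. Its lowest, median and highest levels in those LS neurons were 10.02, 42.9 and 407 TPM. Of these 13 neurons, 11 had H2-Ab1 and 9 had H2-Aa. At a threshold of 1 TPM, 25 LS and 6 TL neurons held it, and 1 TL neuron then held all 3 transcripts.

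The genes of the peptide exchange factor H2-DM behaved unlike each other. H2-DMa, its alpha chain, was expressed in 123 LS neurons (77.8%, 70.6 to 84.1) and 112 TL neurons (67.1%, 59.4 to 74.1), with means of 28.1 and 19.9 TPM. H2-DMb1, a beta chain, was expressed in 18 LS neurons (11.4%, 6.89 to 17.4), from 11.3 to 177 TPM with a median of 49.8 TPM, and in 5 TL neurons (2.99%, 0.979 to 6.85), from 11.8 to 42.8 TPM with a median of 25.9 TPM. H2-DMa was thus a broad transcript, and its rho with H2-Aa was 0.13 in LS. In the GENCODE M21 annotation its exons share 360 bases with Brd2 on the opposite strand. Strand is not marked by this kind of library, so reads of that stretch cannot be told apart. The values fitted a length of 1641 bases, against 3448 in that annotation, so whether the shared bases were counted is not known. The rho of H2-DMa with Brd2 was 0.035 in LS and 0.115 in TL. H2-DMb1 has a near copy, H2-DMb2, which was expressed in 25 LS and 4 TL neurons and did not pass 2.83 TPM in the 8 neurons, and values of these copies are uncertain to the extent that reads were split between them. H2-Oa, H2-Ob and H2-Eb2 were below 10 TPM in every neuron.

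Ciita, the coactivator, was scarce. It passed the threshold in 1 LS neuron, LS neuron 130, at 10.1 TPM (62 reads), and stood at 9.24 TPM (77 reads) in LS neuron 106. These were the neurons with the highest sums of H2-Aa, H2-Ab1 and Cd74. It was at 0 in the other 6 neurons with all 3 transcripts and below the threshold in every TL neuron. Its annotated exons share 329 bases with Dexi, a gene of the opposite strand expressed in 82 LS and 65 TL neurons, so low values of Ciita are uncertain. The values fitted a length of 5254 bases, against 9535 in the annotation, so whether the shared bases were counted is not known. The rho of Ciita with Dexi was 0.047 in LS and 0.059 in TL.

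**Figure D3:**
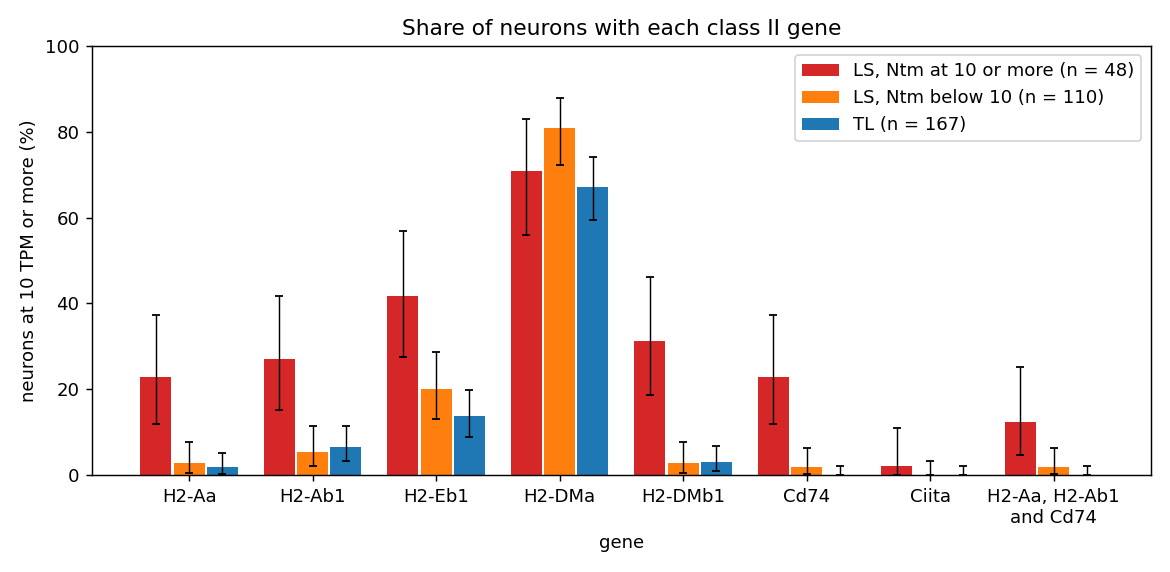
Share of neurons at 10 TPM or more for each class II gene and for H2-Aa, H2-Ab1 and Cd74 together, in LS neurons with Ntm (n = 48), LS neurons without Ntm (n = 110) and TL neurons (n = 167), with exact 95% intervals as error bars. Bars for H2-DMa are high in all sets, and those of the other genes are highest in LS neurons with Ntm.

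Most LS neurons with H2-Aa, H2-Ab1 or Cd74 held Ntm, which encodes the cell adhesion molecule neurotrimin. Ntm was expressed in 48 of 158 LS neurons and in no TL neuron. H2-Aa, H2-Ab1 and Cd74 were expressed together in 6 of the 48 LS neurons with Ntm (12.5%, 4.73 to 25.2) and in 2 of the 110 without it (1.82%, 0.221 to 6.41). Those 2 were LS neuron 111, with Ntm at 0.399 TPM, and LS neuron 142, with Ntm at 6.63 TPM. At least 1 of the 3 transcripts was expressed in 16 of the 48 neurons with Ntm (33.3%, 20.4 to 48.4) and in 6 of the 110 without (5.45%, 2.03 to 11.5). H2-DMa did not follow this split, with means of 28.6 TPM with Ntm and 27.8 TPM without. Among the 48, 25 neurons held 2 or more of the 7 members and 10 held 5 or more, against 21 and 2 of the 110. Mean levels in LS neurons with and without Ntm were 20.7 and 0.930 TPM for H2-Aa, 38.0 and 2.60 TPM for H2-Ab1, and 18.5 and 2.28 TPM for Cd74. Some of these means leaned on single neurons. Without LS neuron 106 the mean of Cd74 with Ntm was 10.2 TPM. Without LS neuron 111 the means in neurons without Ntm were 0.727 TPM for Cd74 and 0.508 TPM for H2-Aa, and without LS neuron 142 that of H2-Ab1 was 1.65 TPM. Of the 6 members compared, 5 had a mean at least 2 times higher with Ntm, a ratio passed by 8.37% of 16430 genes. The members were chosen on the same values, so nothing is read from this count. Ciita, below 1 TPM on average in both sets, was not compared. An immune marker other than C1qb was at 10 TPM or more in 16 of the 48 neurons with Ntm (33.3%, 20.4 to 48.4) and in 34 of the 110 without it (30.9%, 22.4 to 40.4). Of 9 macrophage genes compared, 5 had a mean at least 2 times higher with Ntm and 1 a mean at least 2 times lower. The higher ones were C1qb, with means of 75.6 and 33.7 TPM, and Mrc1, Laptm5, Fcer1g and Cx3cr1, with means below 2 TPM. Of these, Mrc1, Fcer1g and Cx3cr1 leaned on single neurons with Ntm, at 31.3, 42.4 and 40.6 TPM. The lower one was Cd68, with 1.90 and 4.19 TPM, and its ratio leaned on a single neuron without Ntm at 90.0 TPM. The B cell gene Cd79a was higher, with 2.38 and 0.805 TPM, and leaned on a single neuron with Ntm at 62.0 TPM. The dendritic cell gene Flt3 was lower, with 0.310 and 2.02 TPM. With neurons that held an immune marker other than C1qb left out, H2-Aa, H2-Ab1 and Cd74 were expressed together in 1 of 32 LS neurons with Ntm (3.12%) and in 0 of 76 without it. The part of immune RNA in the split by Ntm was not tested.

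Piezo2 and Asic3, which encode a mechanically gated and an acid-sensing channel, marked few of the neurons with all 3 transcripts. These were 1 of 145 neurons with Piezo2 (0.690%, 0.0175 to 3.78) and 1 of 81 with Asic3 (1.23%, 0.0313 to 6.69), LS neuron 111 in both cases. Without LS neuron 111 they were 0 of 144 and 0 of 80. Neurons with any of the 3 transcripts differed between the segments. Of the 22 such LS neurons, 3 held Piezo2 and 1 held Asic3. Of the 13 TL neurons with any of the 3 transcripts, 10 held both Asic3 and Piezo2. They were 25.6% (13.0 to 42.1) of the 39 TL neurons with both of these channel genes. Of the 10, 7 held H2-Ab1 without H2-Aa or Cd74, and apart from TL neuron 127 these had H2-Ab1 at 12.6 to 27.1 TPM. The highest TL values of H2-Ab1 stood without the other chain, with 113 TPM in TL neuron 138, 93.0 TPM in TL neuron 6 and 89.4 TPM in TL neuron 127, where H2-Aa and Cd74 were at 0. TL neurons 138 and 127 also held the satellite glia genes Apoe, at 83150 and 31170 TPM, and Fabp7, at 5989 and 2385 TPM. TL neuron 138 also had the highest Cd68 of any TL neuron, at 124 TPM. In TL neuron 6 Apoe, Fabp7 and Cd68 were all at 0. The part of glial or immune RNA in these values was not tested.

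LS and TL were compared over all genes as a background. Mean levels in LS and TL were 6.92 and 0.498 TPM for H2-Aa, 13.4 and 2.76 TPM for H2-Ab1, 15.6 and 5.14 TPM for H2-Eb1, 8.36 and 0.992 TPM for H2-DMb1 and 7.20 and 0.0849 TPM for Cd74. These 5 of the 6 members compared had a mean at least 2 times higher in LS, a ratio passed by 6.42% of 16184 genes. The members were chosen on these values, so nothing is read from that count. Without LS neuron 106 the LS mean of Cd74 was 4.65 TPM, and without TL neuron 120 the TL mean was 0.0565 TPM. Without TL neuron 9 the TL mean of H2-Aa was 0.329 TPM. With neurons that held an immune marker other than C1qb left out 3 members passed the ratio, and with C1qb counted as well, which left 22 LS neurons, 0 did. No share over all genes is given here for these counts, so they are not read against one. Other cell types also differed, with 2 of 5 macrophage genes compared higher in LS, and 6 of 8 satellite glia genes and 7 of 9 endothelial genes lower. Over all 16184 genes, 1039 were higher in LS and 1046 lower. The endothelial genes summed to 23906 TPM in the highest TL neuron, against a TL median of 65.5 TPM. The part of these cells in the result was not tested. Ciita, with means of 0.392 and 0.156 TPM, was too low to be compared. Within plates the neurons with all 3 transcripts were 2 of 21 LS neurons on plate 2, 2 of 37 on plate 4 and 4 of 37 on plate 5, with none of 25 on plate 3 and none of 38 on plate 6. On plate 3, where no neuron held all 3, the LS means of H2-Eb1 and H2-DMb1 were below those of TL, at 3.34 against 5.31 TPM and 1.01 against 1.73 TPM. The LS mean of Cd74 was 25.1 TPM on plate 5, and 3.86, 0.179, 1.53 and 1.72 TPM on plates 2, 3, 4 and 6.

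Genes of the wider pathway differed in how they stood in the 8 neurons. Ctsd, an endosomal protease gene, had a mean of 2200 TPM in the 8 neurons and 1910 TPM in the other 150, and B2m, of class I, had 843 and 619 TPM. A mean at least 2 times higher in the 8 neurons was found for 2 of 9 processing genes (Ctss and March1) and 1 of 10 class I pathway genes (Nlrc5), and the ratio was passed by 15.6% of 17369 genes. The median log2 ratio of 10 class I pathway genes was 0.78, against 0.10 over all genes. Among genes of the interferon response, 4 of 8 (Gbp3, Igtp, Iigp1 and Ifi47, GTPases induced by interferon) had a mean at least 2 times higher, and at least 10 TPM, in the 8 neurons than in the other 150 LS neurons, with means of 31.9 against 14.7, 139 against 65.3, 23.5 against 6.47 and 16.4 against 4.65 TPM. The neurons were selected on class II levels. Without LS neuron 111, which held Ifi47 at 108 TPM and Gbp3 at 75.1 TPM, 2 of 8 (Igtp and Iigp1) did so. Of 7 genes of interferon gamma signalling none passed the ratio.

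Genes outside the 7 members were ranked by rho with the summed level of H2-Aa and H2-Ab1 over 158 LS neurons. Among the 10305 genes expressed in at least 10% of LS neurons, the first 15 were Opcml, Rabgef1, Gm12240, Bms1, Tnr, Smarca1, Usp11, Snap47, Tom1l2, Prkch, Cdc5l, Arel1, Scg2, Gm2694 and Sstr4, with rho from 0.37 to 0.41. Such values are weak and most neurons were at 0 for both chains. Within LS neurons with Ntm alone, rho of these 15 genes ran from 0.24 (Sstr4) to 0.62 (Tnr), and was 0.29 for Opcml. The ranking included those neurons, so these values are no separate check of it. Opcml, first of them, encodes a relative of neurotrimin, and its mean was 21.1 TPM in LS neurons with Ntm and 6.88 TPM in those without. The other members were not ranked, and had a rho of 0.46 (Cd74), 0.39 (H2-DMb1), 0.38 (H2-Eb1), 0.098 (H2-DMa) and 0.044 (Ciita), so that Cd74 lay above all 15. Ntm had a rho of 0.36.

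Promoters of class II genes are known for a shared Y box bound by NF-Y, and it was looked for in promoter windows of 300 bases. RefSeq windows (GRCm38.p6) were found for 4 of the 7 members. The Y box CTGATTGG, searched on both strands, was in those of H2-Aa and H2-Eb1, in none of H2-DMa and H2-DMb1, and in 4.10% of 32851 promoters, and its core ATTGG, which lies within the Y box, was in 37.4%. H2-DMa, expressed in all 8 neurons, has 2 windows, of which 1 held the core and 1 neither. Capitals mark the Y box or, in H2-DMb1, the core alone. The windows lie at chr17:34287774-34288073 on the minus strand (H2-Aa), chr17:34305617-34305916 on the plus strand (H2-Eb1) and chr17:34152941-34153240 on the plus strand (H2-DMb1).
H2-Aa: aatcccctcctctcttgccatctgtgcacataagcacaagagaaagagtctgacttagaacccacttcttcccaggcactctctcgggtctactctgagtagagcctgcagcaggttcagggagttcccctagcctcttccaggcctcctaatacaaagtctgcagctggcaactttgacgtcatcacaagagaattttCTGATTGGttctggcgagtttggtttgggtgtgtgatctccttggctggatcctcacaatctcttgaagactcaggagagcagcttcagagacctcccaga
H2-Eb1: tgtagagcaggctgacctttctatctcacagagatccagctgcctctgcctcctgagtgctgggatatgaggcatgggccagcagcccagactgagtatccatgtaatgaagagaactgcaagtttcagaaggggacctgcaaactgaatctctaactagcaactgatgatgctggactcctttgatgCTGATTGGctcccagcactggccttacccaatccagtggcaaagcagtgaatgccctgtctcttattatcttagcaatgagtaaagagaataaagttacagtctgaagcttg
H2-DMb1: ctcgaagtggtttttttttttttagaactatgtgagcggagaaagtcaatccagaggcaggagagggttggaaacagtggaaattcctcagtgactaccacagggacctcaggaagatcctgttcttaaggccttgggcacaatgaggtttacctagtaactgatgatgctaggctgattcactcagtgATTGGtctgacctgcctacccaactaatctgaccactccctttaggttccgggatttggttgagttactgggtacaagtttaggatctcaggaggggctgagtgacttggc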

How the data were processed

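Single neurons had been sequenced by the Smart-seq2 protocol. Per the submitters' processing notes, the authors used bcl2fastq 2.15.0.4, STAR 2.4.1 and featureCounts 1.4.4 with GRCm38.p3. The deposited table holds log2 values with an added 1 for 325 neurons. Neurons and bath controls outside that table were not used here. Values were taken off the log2 scale and rescaled to TPM. Whole reads were recovered with GENCODE M21 exonic lengths, or else the shortest length at which all values became whole (relative tolerance 1e-06). For annotated genes above 0 in only 1 or 2 neurons, the length nearest the annotated one was taken instead of the shortest. A length was found for all 34769 genes above 0, 760 of them from 1 or 2 neurons, and on simulated data at least 99.7% of values were recovered. The members and lists were chosen with earlier results of these data known, and the genes named beside them follow a rule on lists, ratios of means (0.1 added) and rho. Calca and 9 further genes of neuron types were added later and are not reported. Thresholds, scaling, markers and plates were varied. Python 3 packages numpy, pandas and scipy were used.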

Additional observations from a re-analysis of the deposited data

How the results depend on the processing

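The share of LS neurons with H2-Aa, H2-Ab1 and Cd74 lay between 3.16% and 6.67% with other thresholds, scales, depths or plates left out, and the TL share was 0 except at 1 TPM (0.599%). Leaving out neurons with any immune marker took 243 of 325 neurons, mostly through C1qb. All 6 shares were then 0, as was the share of neurons with both I-A chains among those with either (57.1% in all LS neurons), here 0 of 1. Genes passing the LS ratio were then 1649 against 1039, with 0 of the 7 members, and those passing the Ntm ratio 2985 against 1376, with 2 members and 2 neurons with Ntm. Leaving out only neurons with a marker other than C1qb, an alternative chosen after seeing the data, gave 0.926% in LS, 3.12% with Ntm, 0 without Ntm, with Piezo2 and with Asic3, and 33.3% for both chains. The cause was not tested. Without plate 5, and so without LS neurons 111 and 142, the shares without Ntm, with Piezo2 and with Asic3 were 0, and the last 2 were 0 without LS neuron 111. The Ntm ratio was passed by 5847 genes without rescaling and by 789 in values scaled by reads only. Over 7 genes and 325 neurons, 16.9% of 2275 values were at the threshold. This was 27.8%, 21.4% and 11.5% at 1, 5 and 20 TPM, 13.5% in values scaled by reads only, 18.9% without neurons with few genes, 13.9% without immune markers and 13.7% with reads thinned to 400000.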
